A study of Homo sapiens with 8 samples.

Results

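The 32 genes described here respond to androgen or mark the secretory luminal cells of the prostate. They were taken as a list of symbols, drawn up with earlier results of these data known, and all 32 were found among the 58828 genes of both count tables. By role they fall into 4 kallikreins (KLK2, KLK3, KLK4, KLK15), 9 surface or secreted proteins (TMPRSS2, FOLH1, STEAP1, STEAP2, SLC45A3, TRPM8, ABCC4, AZGP1, MSMB), 6 transcription factors (FOXA1, GATA2, MAF, SPDEF, CREB3L4, ZBTB16), 7 signalling and elongation genes (FKBP5, PMEPA1, ELL2, EAF2, CAMKK2, SGK1, GREB1) and 6 enzyme and vesicle genes (SORD, HPGD, ALDH1A3, GNMT, TPD52, RAB3B).

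Androgen acts on luminal prostate cells through a steroid hormone response, in which pioneer and partner factors such as FOXA1, GATA2 and HOXB13 take part. In these cells the programme keeps secreted proteases, membrane proteins and metabolic enzymes on, and many prostate cancers keep much of it. 22RV1 cells come from a human prostate carcinoma grown as a xenograft, whereas DU145 cells come from a brain metastasis and are commonly used as an androgen-insensitive line.

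RNA was sequenced from both lines with a lentiviral doxycycline-inducible construct, either empty (vector cells) or with HA-tagged PAGE4 (PAGE4 cells). The cells were selected with puromycin, all were given doxycycline, and the medium contained fetal bovine serum in all 8 conditions. Each culture then received PBS or 200 mM H2O2, as the labels give the dose, for 12 h before collection. Each of the 8 conditions has 1 library, with total counts from 25482984 to 43310401.

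The normalized count used below is the raw count divided by the library's TMM size relative to the other 7 libraries, so that it is 1 scale over both lines. In every run of 4 values the order is vector cells with PBS, vector cells with H2O2, PAGE4 cells with PBS and PAGE4 cells with H2O2. Fold changes are log2 values from edgeR's quasi-likelihood test fitted to all 8 libraries, and a gene is called at an adjusted p under 0.05 over 19784 genes. The standard error (SE) printed after ± was derived from that test, as the size of the fold change divided by the square root of F. It is approximate, and for large differences that rest on few reads it can be smaller than the counting error. With 1 library per condition, the spread in this fit is how far the H2O2 effect differed between vector and PAGE4 cells of the same line, so the p-values do not rest on repeated cultures, and each line or construct stands for 1 culture.

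The PAGE4 transcript was counted 1, 0, 1489 and 1179 times in 22RV1 cells and 1, 1, 1001 and 1431 times in DU145 cells, which matches the labels of all 8 libraries. Both lines expressed the epithelial markers KRT8, KRT18, KRT19, CDH1 and EPCAM, whose summed normalized count was 75743 to 87090 in 22RV1 cells and 37643 to 65662 in DU145 cells. Of 7 basal markers, KRT5, KRT14 and TP63 were between 0 and 5.67 in every library, KRT6A and KRT17 between 0 and 24.9, whereas CD44 had 2562 to 6652 in both lines and ITGA6 113 to 142 in 22RV1 cells and 2439 to 3125 in DU145 cells. The sum of 6 neuroendocrine markers was 3880 to 7517 in 22RV1 cells and 905 to 1744 in DU145 cells, the sum of 5 stromal markers was 149 to 276 and that of 4 leukocyte markers 4.62 to 36.4. The share of counts from mitochondrial genes was 8.97% to 12.3% in 22RV1 cells and 10.9% to 16.5% in DU145 cells, and was lower with H2O2 than with PBS in all 4 pairs of libraries. Its part in the results below was not tested.

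Steroid hormone response elements are made of a pair of inverted half-sites, and promoters of member genes are shown here because these genes are described as a hormone response. RefSeq promoters of GRCh38.p14, from 250 bases before to 50 bases after a start, were found for 24 of the 32 genes, as 40 promoters. TMPRSS2, FOLH1, MSMB, ZBTB16, ELL2, GREB1, SORD and TPD52 had no entry. The pattern searched was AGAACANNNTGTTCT, which reads the same on both strands and has 12 fixed letters. Allowing 2 mismatches, it was found in 2 of the 40 promoters (5%), those of KLK3 and PMEPA1, and in 1.41% of all 35116 promoters. Allowing 3 mismatches, it was found in 7 (17.5%), which added KLK2, FKBP5, HPGD, STEAP2 and TRPM8, and in 10.8% of all promoters. The half-site AGAACA, on either strand, was in 6 of the 40 promoters (15%) and in 14.8% of all promoters. A match in letters is a description of the sequence and not a measured binding site. The bases before the start are printed below for KLK3 (chr19:50854665-50854914, plus strand), KLK2 (chr19:50873189-50873438, plus strand) and PMEPA1 (chr20:57710578-57710827, minus strand), with the match in capitals.
KLK3: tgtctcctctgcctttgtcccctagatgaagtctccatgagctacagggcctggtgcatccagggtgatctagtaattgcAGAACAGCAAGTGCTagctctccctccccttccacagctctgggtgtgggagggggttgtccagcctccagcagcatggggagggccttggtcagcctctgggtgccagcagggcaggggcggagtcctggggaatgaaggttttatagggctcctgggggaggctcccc
KLK2: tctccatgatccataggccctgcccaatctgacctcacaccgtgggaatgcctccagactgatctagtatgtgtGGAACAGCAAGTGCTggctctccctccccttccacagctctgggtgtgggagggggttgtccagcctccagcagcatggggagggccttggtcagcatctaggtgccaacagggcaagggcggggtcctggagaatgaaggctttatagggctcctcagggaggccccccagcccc
PMEPA1: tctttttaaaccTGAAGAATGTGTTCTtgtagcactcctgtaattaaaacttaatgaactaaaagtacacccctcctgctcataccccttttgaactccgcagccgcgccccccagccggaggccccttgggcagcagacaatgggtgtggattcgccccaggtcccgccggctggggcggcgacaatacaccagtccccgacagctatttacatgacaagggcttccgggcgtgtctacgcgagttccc

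The match begins 170 bases before the start of KLK3, 176 bases before that of KLK2 and 238 bases before that of PMEPA1. The KLK2 and KLK3 promoters have 225 identical bases over 294 aligned without gaps (76.5%). The transcripts of these 2 genes are also alike, so reads may be divided between them differently by the counting, and their counts are uncertain to that extent. The same holds for FOLH1, which has a near copy on the same chromosome. Counts are per gene and do not separate isoforms, and the strand setting of the counting is not given in the sources used here.

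Of the 32 genes, 30 passed the filter on low counts. TRPM8, a cold-sensing channel, had raw counts of 5, 0, 1 and 1 in 22RV1 cells and 1, 1, 0 and 7 in DU145 cells. MSMB, a secreted protein of seminal fluid, had 1, 2, 0 and 0 in the first line and 0, 0, 0 and 1 in the second. Neither gene can be compared at this depth, where 3 counts were taken as the floor. In 22RV1 cells, 29 genes reached a mean of 10 normalized counts over the 4 libraries and in DU145 cells 21 did, with 20 genes in both. The members together took 0.53%, 0.274%, 0.569% and 0.361% of all counts in the 22RV1 libraries and 0.0742% to 0.0896% in the DU145 libraries.

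**Figure D1:**
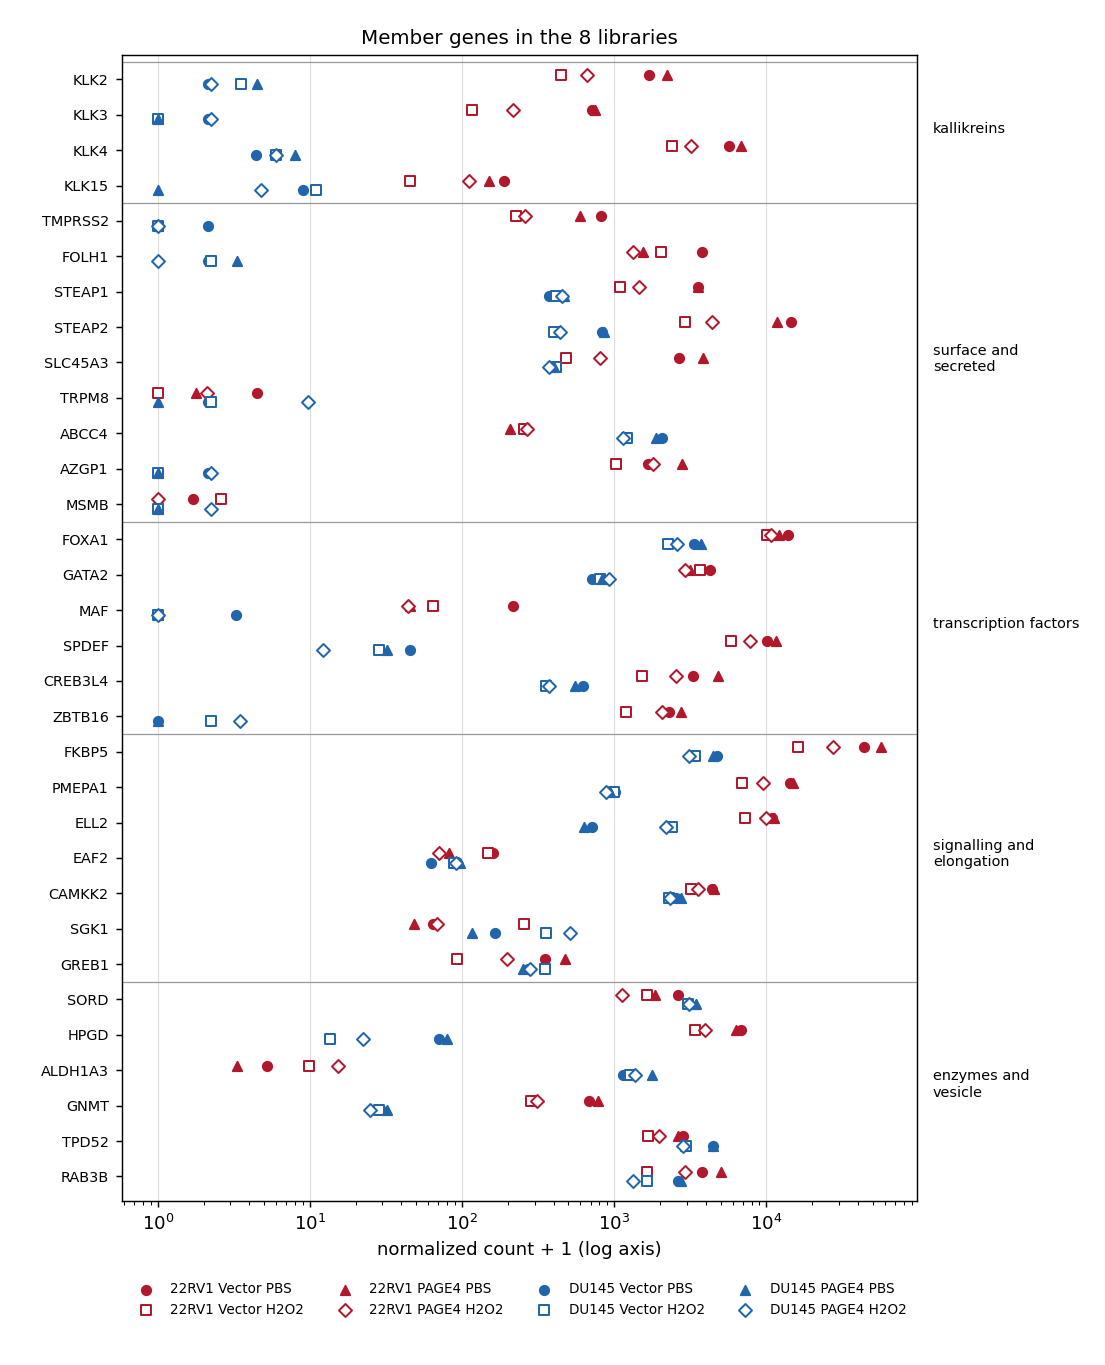
Normalized count plus 1 (log axis) of the 32 member genes in each of the 8 libraries, with 22RV1 in red, DU145 in blue, PBS filled and H2O2 open (vector cells as circles and squares, PAGE4 cells as triangles and diamonds). In 22 genes all 4 red points lie to the right of all 4 blue points, and ABCC4, SORD and ALDH1A3 have the opposite order. The share of all genes without overlap between the lines was not counted.

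The first comparison was between the lines. Most members were far higher in 22RV1 cells, with a few members that went the other way. Of the 30 genes tested, 23 were higher in 22RV1 cells, where 40.4% of all genes tested were called higher, and 5 were higher in DU145 cells, where 36.3% of all genes were called in that direction. The median log2 fold change was 3.02 over the members and 0.07 over all genes. A gene low in DU145 cells can pass the filter through 22RV1 cells, which largely sets its direction. This concerns the kallikreins, TMPRSS2, FOLH1, AZGP1, MAF and ZBTB16, and ALDH1A3 in reverse. Of the 20 members reaching a mean of 10 normalized counts in both lines, ABCC4, SGK1, SORD and TPD52 were higher in DU145 cells. Apart from EAF2 and GREB1, the others were called higher in 22RV1 cells. No median or share of all genes was computed for these 20. All 4 kallikreins and all 6 transcription factors were higher in 22RV1 cells, as were 6 of the 7 surface and secreted genes tested. The enzyme and vesicle genes were divided, 3 higher in each line. EAF2 and GREB1 were not called, with log2 fold changes of 0.36 and -0.27.

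ZBTB16, a zinc finger repressor, showed the largest fitted log2 fold change among the members, 12.04 beside 11.22 for AZGP1. The ratios printed here are another measure, of pooled reads scaled for library size, and by them AZGP1 came first. ZBTB16 had normalized counts of 2297, 1192, 2747 and 2067 in 22RV1 cells and 0, 1.25, 0 and 2.49 in DU145 cells. That is 10163 reads against 3, a ratio of 2331.9 (95% counting interval 798 to 11309.7). AZGP1, a secreted glycoprotein that acts on lipid stores, had 1679, 1029, 2805 and 1787 against 1.14, 0, 0 and 1.25, and its ratio rests on 2 DU145 reads (3062.9, interval 848 to 25295.0). TMPRSS2, a serine protease of the cell surface, had 818, 224, 594 and 260 in 22RV1 cells and a single read in the 4 DU145 libraries, for a ratio of 1683.7 (interval 302 to 66530.8). These 3 genes were thus near the floor of detection in DU145 cells, and their ratios are known only to the width of these intervals.

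FOLH1, the folate hydrolase also known as PSMA, had normalized counts of 3753, 2019.9, 1535 and 1321 in 22RV1 cells and 4 reads in DU145 cells (ratio 1898.0, interval 741 to 6967.2). KLK4, a secreted serine protease, had 5672, 2415, 6793 and 3189 against 3.42, 5.02, 6.93 and 4.98 (ratio 920, interval 574 to 1579.5). KLK3, which encodes prostate-specific antigen (chr19:50854915-50860764), had 714, 115, 748 and 216 and 2 DU145 reads (ratio 799, interval 221 to 6600.2). All 4 kallikreins lie together on chromosome 19, between 50825289 and 50911395. Their levels in 22RV1 cells nevertheless spanned a wide range: per kilobase of exon, the mean over the 4 libraries was 2254 for KLK4, 198 for KLK2, 96.6 for KLK3 and 39.6 for KLK15. On the same scale per kilobase the highest members in 22RV1 cells were SPDEF (4618), FKBP5 (3397), FOXA1 (2657), KLK4 (2254) and PMEPA1 (1998).

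The members higher in DU145 cells were led by ALDH1A3, which makes retinoic acid from retinal. Its normalized counts were 4.2, 8.91, 2.33 and 14.4 in 22RV1 cells and 1133, 1260.3, 1783 and 1361 in DU145 cells, a log2 fold change of -7.77 ± 0.18, adjusted p = 9.28e-19. ABCC4, an efflux pump for cyclic nucleotides and conjugates, had 260, 254, 207 and 267 against 2071, 1214, 1876 and 1137 (-2.63 ± 0.09, adjusted p = 1.12e-15). SORD, the sorbitol dehydrogenase, had 2612, 1655, 1853 and 1128 against 3044, 3076, 3452 and 3119 (-0.87 ± 0.06, adjusted p = 1.08e-10). In these 3 genes every DU145 library lay above every 22RV1 library. SGK1, a kinase induced by serum and glucocorticoid, had 63.7, 255, 47.4 and 67.4 against 164, 354, 115 and 514 (-1.50 ± 0.22, adjusted p = 2.56e-06), and TPD52, a vesicle trafficking protein, had a smaller difference (-0.69 ± 0.07, adjusted p = 8.07e-09) with overlapping values between the lines. RAB3B, called higher in 22RV1 cells (0.63 ± 0.08, adjusted p = 2.14e-07), lost its call when either of the PAGE4 conditions was left out.

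The second comparison asked what 12 h of H2O2 did in each line. In 22RV1 cells most members fell. Of the 30 genes tested, 24 were lower with H2O2, where 16.9% of all genes were called lower, and 2 were higher, where 15.2% were called higher. The median log2 fold change was -0.85 over the members and -0.01 over all genes. All 4 kallikreins fell, as did 6 of 7 surface and secreted genes, 4 of 6 transcription factors, 5 of 7 signalling and elongation genes and 5 of 6 enzyme and vesicle genes. ABCC4, GATA2, MAF and EAF2 were not called. In 22 of the 24 members called lower, both H2O2 libraries lay below both PBS libraries, with FOLH1 and AZGP1 as the exceptions. The calls came from these same libraries, and the count was not made over all genes called lower. In bulk RNA, fewer cells that express the members and less RNA per cell cannot be told apart.

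SLC45A3, the membrane transporter prostein, showed the steepest fall. Its normalized counts in 22RV1 cells were 2665, 482, 3850.1 and 811, a log2 fold change of -2.36 ± 0.12, adjusted p = 1.75e-11. KLK3 had the values given above, from 714 to 115 in vector cells and from 748 to 216 in PAGE4 cells, and its log2 fold change was -2.20 ± 0.23, adjusted p = 4.47e-07. KLK2, the kallikrein next to KLK3 whose promoter is printed beside it above, had 1681, 448, 2230.4 and 666 (-1.83 ± 0.14, adjusted p = 4.69e-09). Both H2O2 libraries were far below both PBS libraries in these 3 genes.

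STEAP1 and STEAP2, six-transmembrane surface proteins of which STEAP2 reduces iron and copper, are neighbours on chromosome 7 (chr7:90154456-90164829 and chr7:90167590-90238137). STEAP2 had normalized counts of 14447, 2913, 11750.0 and 4392 in 22RV1 cells (-1.86 ± 0.13, adjusted p = 2.65e-09). STEAP1 had 3579.8, 1087, 3546 and 1464 (-1.50 ± 0.11, adjusted p = 5.97e-09). In both, the vector library with H2O2 was the lowest of the 4. GREB1, a coregulator of steroid receptors, had 351, 92.3, 471 and 198 (log2 fold change -1.57 ± 0.20, adjusted p = 5.88e-06). TMPRSS2 changed by -1.54 ± 0.20, adjusted p = 1.19e-05. GNMT, which uses up S-adenosylmethionine by methylating glycine, had 686, 284, 779 and 309 (-1.30 ± 0.17, adjusted p = 9.93e-06). In each of these genes the fall was seen in vector and in PAGE4 cells alike.

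The other members called lower in 22RV1 cells ranged from FKBP5, the Hsp90 cochaperone of steroid receptors, with a log2 fold change of -1.25, to FOXA1, with -0.32. SGK1 rose, with normalized counts of 63.7, 255, 47.4 and 67.4 (1.37 ± 0.32, adjusted p = 0.00261), but most of this came from the vector cells. ALDH1A3 was also called higher (1.74 ± 0.56, adjusted p = 0.0216), at normalized counts of only 4.2, 8.91, 2.33 and 14.4. Without the pair of vector libraries, 21 members were called, and KLK15, FOLH1, FOXA1, ELL2 and SGK1 lost their calls. Without the pair of PAGE4 libraries, 26 were called. When a fold change over 1.5 in both pairs was asked for instead of a test, 16 of 29 members were lower and none was higher. Over all genes with the same minimum count, 3469 of 19532 passed this limit, 1586 of them higher. Of all genes called with H2O2 in 22RV1 cells, 47.3% were higher with TMM and 64.2% with total counts, with which 2 members were higher and 23 lower.

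SPDEF had normalized counts of 10131, 5828, 11536 and 7860.4 in 22RV1 cells, and FOXA1 had 13872, 10092, 12191 and 10756. Both of these factors kept a high count with H2O2, although both fell by the test. CAMKK2, a kinase upstream of AMPK, had 4364, 3216, 4545 and 3549 in 22RV1 cells and 2559, 2302, 2741 and 2325 in DU145 cells. Its fall was called in the first line (-0.40 ± 0.08, adjusted p = 0.000986) and not in the second (-0.20 ± 0.09, adjusted p = 0.0744). The difference between the lines was itself not called (-0.20 ± 0.12, adjusted p = 0.259). KLK15, a kallikrein that can activate other kallikreins, had 188, 44.5, 150 and 110 in 22RV1 cells, where the vector library with H2O2 stood below the other 3.

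The summed normalized count of 7 basal markers moved with H2O2 as well. Nearly all of this sum was CD44 in 22RV1 cells, and CD44 with ITGA6 in DU145 cells. The sum was 2940.2 and 3442 with PBS and 5749 and 6774 with H2O2 in 22RV1 cells, and 5009.7 and 5401 with PBS and 8152 and 8295 with H2O2 in DU145 cells. Of the 2 genes of this list that were tested, CD44 rose in both lines and ITGA6 in DU145 cells, while KRT5, KRT14 and TP63 stayed near 0 and KRT6A, not tested, had 1.14, 16.3, 1.15 and 24.9 in DU145 cells. Of the 5 luminal markers, KRT19 fell and KRT18 rose in 22RV1 cells (-0.84 ± 0.08, adjusted p = 2.56e-07 and 0.40 ± 0.08, adjusted p = 0.00045), and KRT8 and KRT19 fell in DU145 cells. Of the neuroendocrine markers, ENO2 fell in both lines (-0.62 ± 0.09, adjusted p = 3.51e-05 and -0.93 ± 0.10, adjusted p = 3.08e-07), SYP fell in 22RV1 cells (-0.28 ± 0.11, adjusted p = 0.049) and CHGA rose in DU145 cells (2.07 ± 0.62, adjusted p = 0.0109). The stromal marker ACTA2, with 34.3, 96.4, 63.7 and 166 in 22RV1 cells and 54.8, 7.52, 72.7 and 29.9 in DU145 cells, rose in the first line (1.43 ± 0.34, adjusted p = 0.0032) and fell in the second (-1.86 ± 0.43, adjusted p = 0.00151). The part of these changes in the members' results was not tested.

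The fall was smaller in PAGE4 cells than in vector cells for most members. Of the 24 members called lower, 22 (91.7%) had the smaller fall in the PAGE4 pair, and the median was -1.16 in the vector pair and -0.75 in the PAGE4 pair. Over all 3305 genes called lower in 22RV1 cells with the same minimum count, 68.8% had the smaller fall in PAGE4 cells, with medians of -0.70 and -0.54. Of the 2879 genes called higher there, 72.7% likewise had the smaller rise in PAGE4 cells, with medians of 0.68 and 0.50. A smaller H2O2 change in the PAGE4 pair was thus common among genes of both directions. KLK3 fell by 2.63 in the vector pair and by 1.79 in the PAGE4 pair on the log2 scale, STEAP2 by 2.31 and by 1.42, and TMPRSS2 by 1.86 and by 1.19. SORD and GNMT were the 2 exceptions. KLK15 was the member with the widest gap among those called lower, with -2.07 and -0.44. With 1 library per condition this difference between the constructs has no test.

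**Figure D2:**
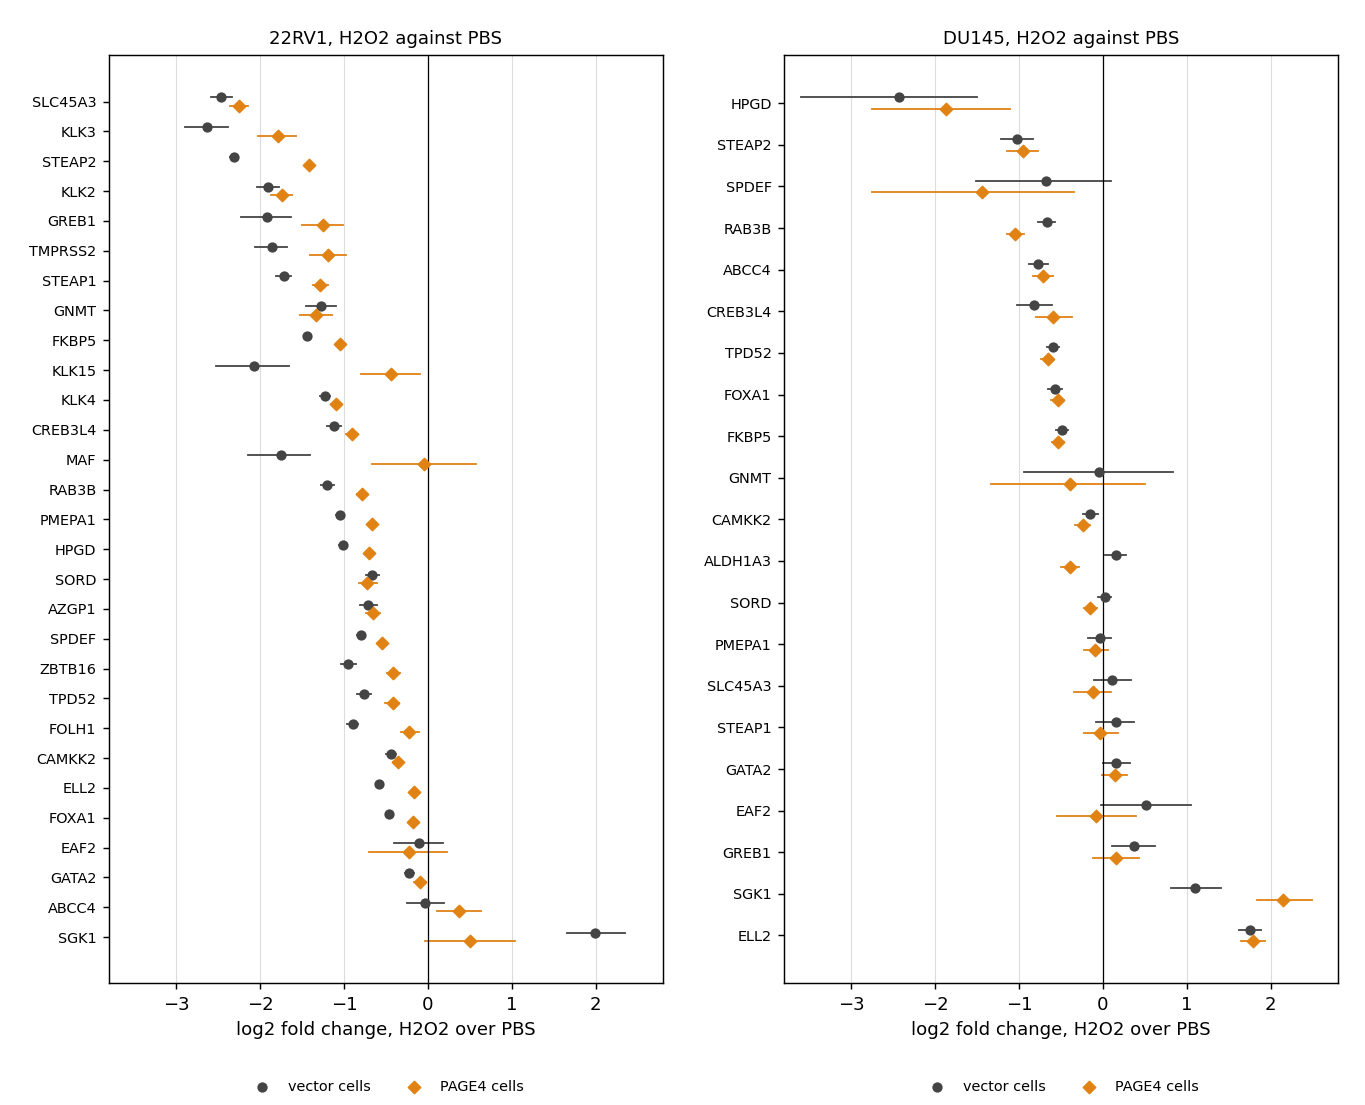
Log2 fold change of H2O2 over PBS in vector cells (circles) and PAGE4 cells (diamonds), for 22RV1 (left) and DU145 (right), for members whose mean in the line reached 10 normalized counts. Horizontal lines are 95% counting intervals and do not cover the spread between cultures. In 22RV1 cells 28 of 29 members lie below 0 in vector cells and 27 of 29 in PAGE4 cells. Of all genes with the same minimum count, 52.6% and 50.5% were below 0.

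In DU145 cells, H2O2 changed fewer members, and in both directions. Of the 30 genes tested, 9 were lower, where 22.8% of all genes were called lower, and 2 were higher, where 19.2% were called higher. All 11 were among the 21 members that reached a mean of 10 normalized counts there, whose median log2 fold change was -0.20, against -0.05 over all genes tested. The kallikreins could not be compared, since none reached that count in DU145 cells. Of the 4 transcription factors that did, FOXA1, SPDEF and CREB3L4 fell.

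HPGD, which inactivates prostaglandins, fell most. Its normalized counts in DU145 cells were 69.6, 12.5, 78.5 and 21.2, a log2 fold change of -2.13 ± 0.27, adjusted p = 2.69e-06. STEAP2 had 825, 404, 855 and 442 (-0.99 ± 0.15, adjusted p = 3.14e-05). Both H2O2 libraries were at about the same low level in STEAP2. SPDEF, an ETS factor of secretory epithelia, had only 44.5, 27.6, 31.2 and 11.2 (-0.97 ± 0.29, adjusted p = 0.011), and its call was lost without the pair of PAGE4 libraries. RAB3B, a small GTPase of secretory vesicles, had 2630.4, 1653, 2733 and 1322 (-0.86 ± 0.11, adjusted p = 2.96e-06). ABCC4, with the counts given above, changed by -0.75 ± 0.12, adjusted p = 5.1e-05. Both H2O2 libraries were again below both PBS libraries in these genes.

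CREB3L4, a bZIP factor of the endoplasmic reticulum membrane, had normalized counts of 623, 354, 555 and 370 in DU145 cells (-0.70 ± 0.12, adjusted p = 6.5e-05). TPD52 had 4448, 2952, 4465 and 2822 (-0.63 ± 0.09, adjusted p = 1.71e-05). FOXA1, a pioneer factor that opens chromatin, had 3336, 2243, 3745 and 2580.1 (-0.55 ± 0.08, adjusted p = 2.28e-05). The ninth member called lower was FKBP5 (-0.52 ± 0.09, adjusted p = 5.61e-05). ELL2, a transcription elongation factor, rose, with 712, 2391, 637 and 2204 (1.77 ± 0.10, adjusted p = 8.12e-11), and both H2O2 libraries were over 3 times the PBS library of the same construct. SGK1 rose as well (1.62 ± 0.29, adjusted p = 0.000145), with its highest count, 514, in PAGE4 cells, and lost its call without the pair of PAGE4 libraries. Among the 9 members called lower in DU145 cells, 5 had the smaller fall in PAGE4 cells, a share of 55.6% beside 46.6% over all genes called lower there.

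The H2O2 effect itself was then compared between the lines. It differed for 12 of the 30 genes, where 19.5% of all genes were called in either direction. In 9 of the 12 the log2 fold change was lower in 22RV1 cells. SLC45A3 and ELL2 had the widest differences, of -2.35 ± 0.17, adjusted p = 9.44e-09 and -2.15 ± 0.13, adjusted p = 1.17e-09 (22RV1 minus DU145). The normalized counts of SLC45A3 in DU145 cells were 383, 414, 404 and 371 and did not separate H2O2 from PBS. ELL2 had 10843, 7251, 11218 and 9939.8 in 22RV1 cells, a small fall, beside its rise in DU145 cells. ELL2 is thus a member that was called in opposite directions in the 2 lines.

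GREB1, with 270, 349, 252 and 280 in DU145 cells, differed by -1.84 ± 0.28, adjusted p = 0.00011. STEAP1, with 374, 415, 464 and 456 there, differed by -1.56 ± 0.17, adjusted p = 2.67e-06. For GREB1, STEAP1, SLC45A3, PMEPA1, SORD and GNMT, the change was called in 22RV1 cells and not in DU145 cells. PMEPA1, a membrane protein that dampens TGF-beta signalling, had 14291, 6909, 15055 and 9554 in 22RV1 cells and 1016, 989, 943 and 888 in DU145 cells (difference -0.79 ± 0.13, adjusted p = 0.000262). FKBP5 fell in both lines, with 44162, 16245, 56690.4 and 27327 and 4770.0, 3388, 4494 and 3091, and more so in 22RV1 cells (difference -0.73 ± 0.12, adjusted p = 0.000181). STEAP2 also fell in both and differed by -0.87 ± 0.20, adjusted p = 0.00437, a call that DESeq2's Wald test did not give (adjusted p = 0.143).

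SORD (-0.62 ± 0.13, adjusted p = 0.00153) and GNMT (-1.08 ± 0.37, adjusted p = 0.0454) complete the 9. GNMT had only 28.5, 27.6, 31.2 and 23.7 in DU145 cells, and its call was lost in 5 of the 8 alternatives. HPGD differed in the other direction (1.28 ± 0.30, adjusted p = 0.00436), since it fell in both lines and further in DU145 cells. Its normalized counts in 22RV1 cells were 6831, 3396, 6360.1 and 3924. ABCC4 (0.91 ± 0.19, adjusted p = 0.00156) fell only in DU145 cells by the test, and ALDH1A3 (1.86 ± 0.58, adjusted p = 0.0276) is limited by its low counts in 22RV1 cells. Without the pair of DU145 vector libraries, 9 members differed, and SORD, HPGD and GNMT were not among the calls. The kallikreins, TMPRSS2, FOLH1, AZGP1, MAF and ZBTB16 have too few DU145 reads for this comparison to bear on them.

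**Figure D3:**
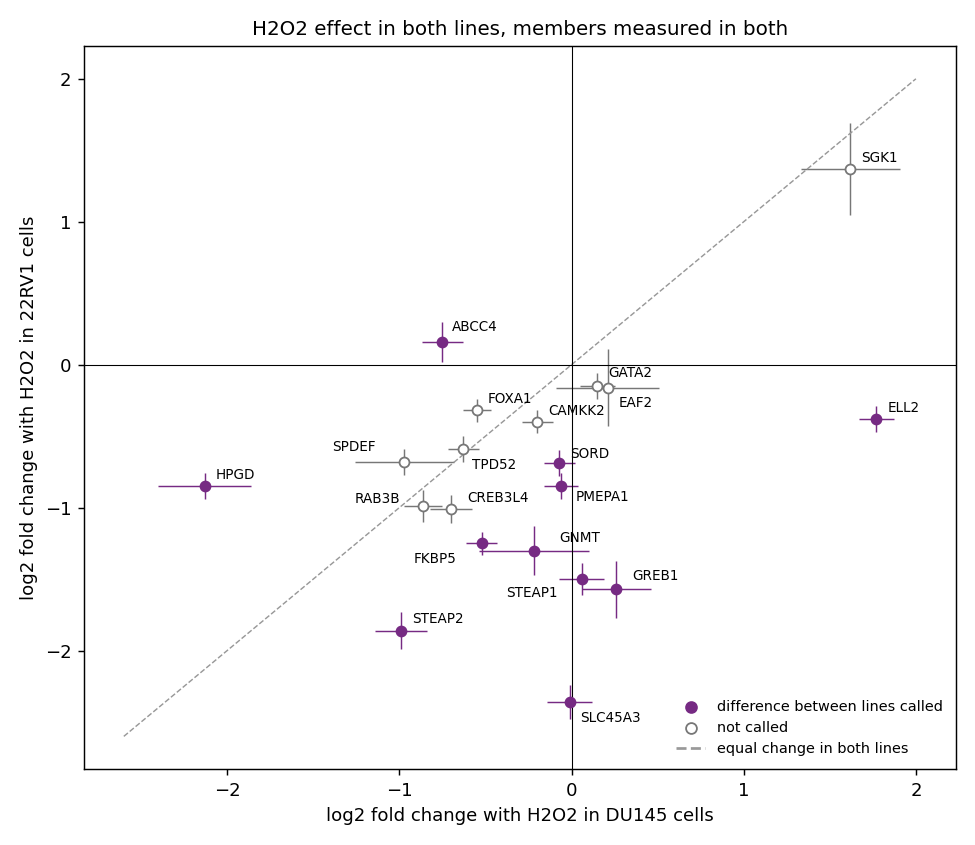
Log2 fold change with H2O2 in DU145 cells (horizontal) and 22RV1 cells (vertical) for the 20 members whose mean reached 10 normalized counts in both lines, with bars of 1 SE. Filled points are the 11 members of these whose difference between lines was called, and most of them lie below the dashed line of equal change, with HPGD and ABCC4 above it.

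The third comparison was between PAGE4 cells and vector cells of a line. It shares its vector and PAGE4 libraries with the H2O2 comparison, and the p-values do not rest on separate cultures of each construct. In 22RV1 cells, 10 of the 30 genes were higher in PAGE4 cells, where 2.51% of all genes were called higher, and 6 were lower, where 2.69% were called lower. The median log2 fold change was 0.22 over the members and -0.01 over all genes. The kallikreins KLK2 and KLK4 were among the higher genes, and the transcription factors went both ways, with CREB3L4, ZBTB16 and SPDEF higher and MAF and GATA2 lower.

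AZGP1 rose most, with the counts given above and a log2 fold change of 0.77 ± 0.12, adjusted p = 0.000433. For GREB1 the log2 fold change was 0.71 ± 0.20, adjusted p = 0.0403. CREB3L4 had normalized counts of 3306, 1521, 4778 and 2561 in 22RV1 cells (0.64 ± 0.10, adjusted p = 0.000324). SLC45A3 changed by 0.63 ± 0.11, adjusted p = 0.00134. RAB3B had 3779, 1648, 5021 and 2908 (0.61 ± 0.11, adjusted p = 0.00109). FKBP5 changed by 0.55 ± 0.08, adjusted p = 0.000217, ZBTB16 by 0.52, KLK2 by 0.48, KLK4 by 0.33 and SPDEF by 0.31. Each of these 10 genes was higher in PAGE4 cells with PBS and with H2O2 alike. The change was smaller in size than that with H2O2 in 9 of the 10 genes. AZGP1 was the exception (0.77 beside -0.68 with H2O2), and ZBTB16 was close (0.52 beside -0.68).

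The 6 members lower in PAGE4 cells were led by MAF, a bZIP factor. MAF had normalized counts of 214, 63.2, 44.3 and 43.1 (-1.48 ± 0.42, adjusted p = 0.0448), so that the vector library with PBS stood far above the other 3. Without the pair of PBS libraries its value was -0.53 (adjusted p = 0.826). SGK1, with the counts given above, changed by -1.23 ± 0.32, adjusted p = 0.0284, and without the pair of H2O2 libraries by -0.42 (adjusted p = 0.753). EAF2, a partner of the ELL elongation factors, had 158, 147, 81.6 and 69.6 (-1.01 ± 0.28, adjusted p = 0.0364). FOLH1 changed by -0.96 ± 0.14, adjusted p = 0.000151 and SORD by -0.52 ± 0.09, adjusted p = 0.00102. GATA2, a zinc finger factor, had 4273, 3675, 3126 and 2939.6 (-0.39 ± 0.09, adjusted p = 0.0121). In EAF2, FOLH1 and GATA2 both PAGE4 libraries were below both vector libraries, and in SORD each was below the vector library of the same treatment.

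Of these 16 calls, 7 were kept in all 6 alternatives, namely FOLH1, SLC45A3, AZGP1, CREB3L4, FKBP5, SORD and RAB3B. With the H2O2 libraries left out, KLK2, KLK4, SPDEF, ZBTB16, GREB1, EAF2 and SGK1 lost their calls, and GREB1, for example, was then at 0.43 (adjusted p = 0.416) and ZBTB16 at 0.27 (adjusted p = 0.463). With the PBS libraries left out, KLK2, GATA2, MAF and EAF2 lost theirs, and STEAP2, PMEPA1 and ELL2 were called higher. DESeq2's Wald test called 9 members. Among the markers, KRT8 (-0.28 ± 0.07, adjusted p = 0.0196) and the stromal LUM (-1.74 ± 0.47, adjusted p = 0.0358) were lower in PAGE4 22RV1 cells and the neuroendocrine ENO2 (0.66 ± 0.09, adjusted p = 0.00011) was higher, and their part in these results was not tested. By treatment, and without a test of the difference, the pairs read as follows. With PBS, 15 of 29 members were above 0 and the median log2 fold change of PAGE4 over vector cells was 0.05, while with H2O2, 23 of 29 were above 0 and the median was 0.43. Over all genes with the same minimum count the medians were 0.00 in both, with 49.4% and 50.1% above 0. STEAP2 was one of the members whose sign differed, with -0.30 for PBS and 0.59 for H2O2, and KLK15 another, with -0.33 and 1.30. KLK3 had 0.07 and 0.91. The PAGE4 pair with H2O2 shares both of its libraries with the H2O2 pairs described above, so these values are the same counts seen from the other side and not independent of them.

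**Figure D4:**
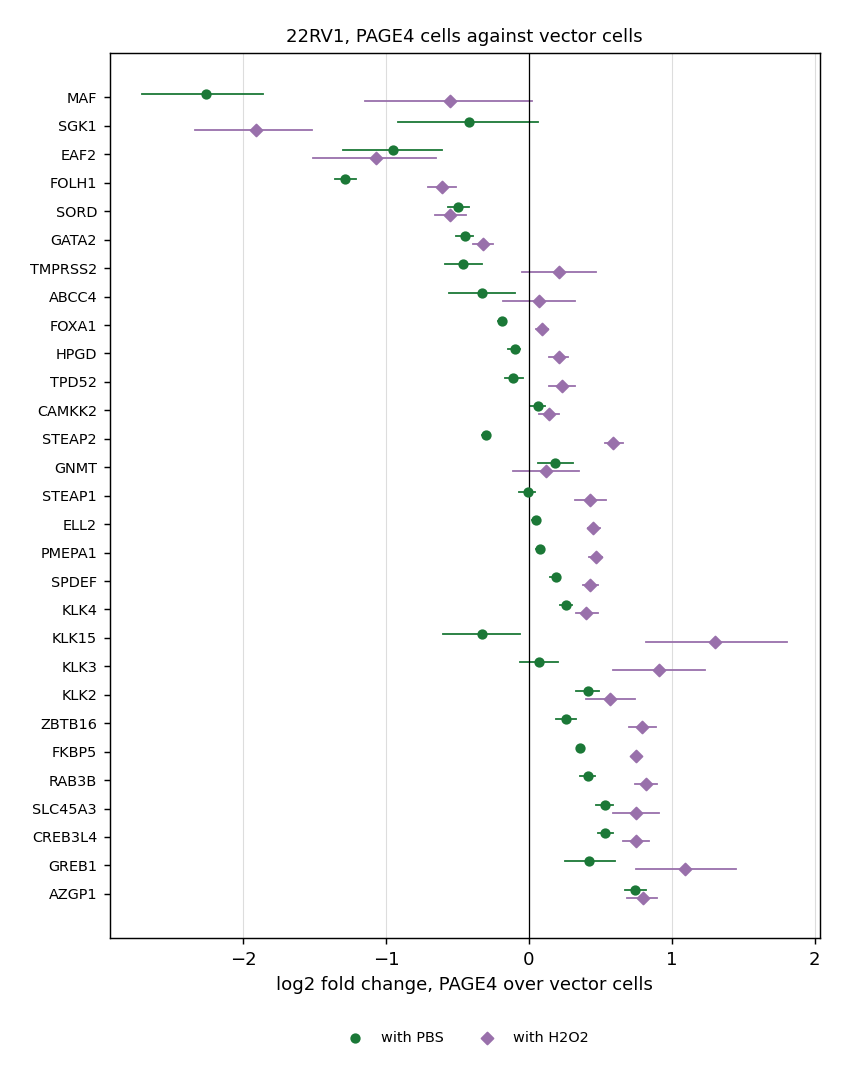
Log2 fold change of PAGE4 over vector 22RV1 cells with PBS (circles) and with H2O2 (diamonds), for the 29 members whose mean reached 10 normalized counts, ordered by the fitted fold change. Horizontal lines are 95% counting intervals only. Most diamonds lie to the right of 0 and of their circles, while MAF, SGK1, EAF2, FOLH1, SORD and GATA2 lie to the left of 0 at both treatments.

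In DU145 cells, no member was called between PAGE4 and vector cells by edgeR, where 0.323% of all genes were called. At an unadjusted p under 0.05 there were 5 members by edgeR and 3 by DESeq2's Wald test, which also called none after adjustment. The share of all genes at that unadjusted limit was not counted, and the 0.323% is not a background for it. Among members that reached a mean of 10 normalized counts and had the same direction at both treatments, the largest log2 fold changes were those of SPDEF (-0.76 ± 0.29, adjusted p = 0.436), ALDH1A3 (0.38 ± 0.14, adjusted p = 0.436) and EAF2 (0.34 ± 0.30, adjusted p = 0.848). Of these, ALDH1A3 had the counts given above, with 1783 in PAGE4 cells with PBS as the highest. EAF2 had 61.6, 87.8, 95.8 and 90.9, and its vector library with PBS was the lowest of the 4. Of the 5 luminal markers, 4 were higher in DU145 PAGE4 cells, namely KRT19 (0.80 ± 0.08, adjusted p = 7.02e-05), CDH1, EPCAM and KRT8. Their part in these results was not tested.

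The PAGE4 effect differed between the lines for 6 of the 30 genes, where 2.49% of all genes were called. It was higher in 22RV1 cells for RAB3B (0.73 ± 0.15, adjusted p = 0.0103), CREB3L4 (0.70 ± 0.15, adjusted p = 0.0149), SLC45A3 (0.67 ± 0.17, adjusted p = 0.0394) and FKBP5 (0.66 ± 0.12, adjusted p = 0.00291), and lower for SORD (-0.62 ± 0.13, adjusted p = 0.00902) and GATA2 (-0.60 ± 0.13, adjusted p = 0.0176). GATA2 had 716, 800, 832 and 919 in DU145 cells, where both PAGE4 libraries were above the vector library of the same treatment. FKBP5 was the member whose call was kept in all 8 alternatives, and each of the other 5 was lost in at least 1. Without the pair of 22RV1 PBS libraries 13 members were called, whereas 2 were called without the DU145 PBS pair, which lost SLC45A3, GATA2, CREB3L4 and SORD, and 2 without the DU145 H2O2 pair, which lost SLC45A3, GATA2, SORD and RAB3B.

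A list of 28 other genes of the androgen pathway was counted beside the members, 17 of them partner factors and coregulators and 11 enzymes of androgen metabolism. Of these, 24 were tested. Between the lines 10 were higher in 22RV1 cells and 8 in DU145 cells, shares near those of all genes (40.4% and 36.3%). HOXB13, a prostate homeobox factor, had 5825, 2171, 6708 and 2961 in 22RV1 cells and 4.56, 0, 2.31 and 3.74 in DU145 cells. UGT2B15, which conjugates androgens for removal, had 1763, 479, 267 and 114 against 0, 0, 3.46 and 1.25. GRHL2, an epithelial factor, was also higher in 22RV1 cells (7.38 ± 0.11, adjusted p = 1.35e-21). The lines did not overlap in HOXB13 or UGT2B15.

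With H2O2 in 22RV1 cells, 9 of the 24 genes fell and 4 rose, where 16.9% and 15.2% of all genes did. UGT2B15 (-1.61 ± 0.19, adjusted p = 3.13e-06) and HOXB13 (-1.30 ± 0.11, adjusted p = 1.43e-08) fell most. In DU145 cells, 6 fell and 7 rose, where 22.8% and 19.2% of all genes did. CCND1, a cyclin D, rose in DU145 cells (0.85 ± 0.09, adjusted p = 2.9e-07), as did the coactivators CREBBP (0.81 ± 0.09, adjusted p = 7.43e-07) and MED1 (0.80 ± 0.08, adjusted p = 1.95e-07). The H2O2 effect differed between the lines for 4 genes of the list, led by CCND1, where 19.5% of all genes were called.

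Between PAGE4 and vector cells, 3 genes of this list were called in 22RV1 cells, 1 higher and 2 lower, where 2.51% and 2.69% of all genes were called, and none was called in DU145 cells. UGT2B15, with the counts given above, was lower in PAGE4 cells (-2.44 ± 0.19, adjusted p = 1.23e-07). UGT2B15 shares much of its sequence with UGT2B17, so its reads are uncertain in that respect. NCOA2 (-0.33 ± 0.09, adjusted p = 0.0284) was lower and CCND1 (0.32 ± 0.09, adjusted p = 0.0388) higher.

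Several members, FKBP5, SGK1 and ZBTB16 among them, are also targets of the glucocorticoid receptor, so 6 genes of that receptor and its targets were counted as well. With H2O2 in 22RV1 cells 4 rose and 1 fell, where 15.2% and 16.9% of all genes did, and in DU145 cells 3 rose and 3 fell, where 19.2% and 22.8% did. KLF9 fell in both lines (-0.70 ± 0.14, adjusted p = 0.000574 and -0.70 ± 0.16, adjusted p = 0.00109), and PER1 fell in DU145 cells (-0.93 ± 0.12, adjusted p = 4.07e-06). DUSP1, a phosphatase of MAP kinases, rose in both lines, by 1.76 ± 0.11, adjusted p = 2.19e-10 and 0.71 ± 0.10, adjusted p = 1.36e-05. TSC22D3, also known as GILZ, rose by 0.65 ± 0.16, adjusted p = 0.00311 in 22RV1 cells and by 1.85 ± 0.17, adjusted p = 4.12e-08 in DU145 cells. The receptor gene NR3C1 had 1105, 1736, 855 and 1363 in 22RV1 cells and 5951, 4604, 4863 and 4187 in DU145 cells, and its H2O2 effect was positive in the first line (0.66 ± 0.09, adjusted p = 9.85e-06) and negative in the second (-0.29 ± 0.08, adjusted p = 0.00821). The negative value lost its call when either pair of DU145 libraries was left out. SGK1 thus rose in both lines, as did DUSP1, TSC22D3 and ZFP36, whereas FKBP5 and KLF9 fell in both.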

How the data were processed

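RNA-seq libraries of 22RV1 and DU145 cells, 1 for each of the 8 combinations of line, construct and treatment, were analysed. The submitters' processing notes name the aligner HISAT2 (version 2.1.0), the counting tool featureCounts (version 1.6.0) and the build GRCh38. The deposited tables, 1 per line, hold the raw counts per gene that the authors obtained in this way, with no normalization. The gene annotation and the strand setting of the counting are not given in the sources used here. The labels name Trizol and the methods a column kit for RNA extraction. Symbols were taken as written, and coordinates and exon lengths come from GENCODE on GRCh38.

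The tables were joined by symbol and fitted with edgeR 4.0.16 in R 4.3.3 (quasi-likelihood test, TMM normalization, low counts filtered with the line as the group, 19784 genes tested). The design had 6 coefficients: line, construct within line and H2O2 within line. It left 2 residual degrees of freedom, and the prior had 17.3. P-values were adjusted by the Benjamini-Hochberg method with a limit of 0.05. The study used a fold change over 1.5 with DESeq2, and DESeq2 1.42.0 served here as an alternative. Fold changes of single pairs of libraries were computed as log2 after adding 0.5 to normalized counts. Their 95% intervals are exact (Clopper-Pearson) and, like the floor of 3 counts, cover counting error only. In data simulated for H2O2 in 22RV1 cells over 19784 genes, the fit recovered 136 of 200 genes changed 2-fold, with 19 false calls. The false calls were a larger share of the calls than the limit of 0.05. The simulated counts used the spread estimated by the fit and had no construct effect. They cannot show how the fit would behave on repeated cultures. Total counts per library ranged from 25482984 to 43310401.

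The members and the lists of pathway and marker genes were chosen with earlier results of these data known, and some genes of these lists are not reported here. Per-library values are given for the 6 members with the largest change between lines and any called higher in DU145 cells, and, for the other comparisons, for up to 8 called members in each direction, or the 3 largest that moved alike in both pairs where fewer than 3 were called. Of the other lists, up to 4 called genes are given. Values of other genes were chosen after they were seen. Figures were drawn with matplotlib 3.10.9.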

Additional observations from a re-analysis of the deposited data

Results flagged for a closer look

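The results given here are those in which the same contrast had a different size in 22RV1 cells and in DU145 cells, by edgeR's test of the difference itself (adjusted p under 0.05 over all genes tested). All values are differences in log2 fold change, 22RV1 minus DU145, and each rests on 1 line of each kind.

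For the H2O2 effect, the members with the lower value in 22RV1 cells were SLC45A3 (-2.35 ± 0.17, adjusted p = 9.44e-09), ELL2 (-2.15 ± 0.13, adjusted p = 1.17e-09), GREB1 (-1.84 ± 0.28, adjusted p = 0.00011), STEAP1 (-1.56 ± 0.17, adjusted p = 2.67e-06), GNMT (-1.08 ± 0.37, adjusted p = 0.0454), STEAP2 (-0.87 ± 0.20, adjusted p = 0.00437), PMEPA1 (-0.79 ± 0.13, adjusted p = 0.000262), FKBP5 (-0.73 ± 0.12, adjusted p = 0.000181) and SORD (-0.62 ± 0.13, adjusted p = 0.00153). The members with the higher value there were ALDH1A3 (1.86 ± 0.58, adjusted p = 0.0276), HPGD (1.28 ± 0.30, adjusted p = 0.00436) and ABCC4 (0.91 ± 0.19, adjusted p = 0.00156).

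Among the other genes of the androgen pathway the H2O2 effect was lower in 22RV1 cells for CCND1 (-1.25 ± 0.13, adjusted p = 8.45e-07), HSP90AA1 (-0.52 ± 0.11, adjusted p = 0.00184), MED1 (-0.42 ± 0.12, adjusted p = 0.0155) and FKBP4 (-0.37 ± 0.11, adjusted p = 0.0239).

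For the PAGE4 effect, the value was higher in 22RV1 cells for RAB3B (0.73 ± 0.15, adjusted p = 0.0103), CREB3L4 (0.70 ± 0.15, adjusted p = 0.0149), SLC45A3 (0.67 ± 0.17, adjusted p = 0.0394) and FKBP5 (0.66 ± 0.12, adjusted p = 0.00291), and lower for SORD (-0.62 ± 0.13, adjusted p = 0.00902) and GATA2 (-0.60 ± 0.13, adjusted p = 0.0176).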

How the results depend on the processing

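The alternatives run were DESeq2 size factors, total counts, no filter on low counts and DESeq2's Wald test. Each pair of libraries was also left out in turn, and a fold limit took the place of a test. Single genes were recomputed under all of these but the fold limit, which gave counts only. They were the tested members, HOXB13, UGT2B15 and NR3C1. For H2O2 and PAGE4 they were recomputed only where the line or lines reached a mean of 10 normalized counts. None of those called changed direction. The other pathway genes were not recomputed. For PAGE4 in 22RV1 cells, 16 members were called, against 9 by DESeq2's Wald test, 9 to 15 when a pair was left out and 3 with a fold change over 1.5 in both pairs. For the PAGE4 difference between lines, 6 were called, against 2 to 13 when a pair was left out. For H2O2 in 22RV1 cells, 26 were called, against 16 with a fold change over 1.5 in both pairs. The causes were not tested. Total counts moved the median of all genes from 0.07 to 0.271 between the lines and from -0.005 to 0.108 for H2O2 in 22RV1 cells. Fits that leave out a pair of libraries assume that the remaining lone libraries vary like the others. For PAGE4 in DU145 cells, the number of all genes called was 64, against 217 without the filter and 8 and 25 without the PBS or the H2O2 pair. Calls of single members were lost in at least 1 alternative for 5 of 6 in the PAGE4 difference between lines, 9 of 16 for PAGE4 in 22RV1 cells and 1 of 28 between the lines. The low-count call of ALDH1A3 in 22RV1 cells was not recomputed. For the 8 members at or under 3 counts in every DU145 library, a change there was not detectable at this depth. No paired analysis was possible by replicate number because each condition has 1 library. With the 4 conditions as blocks, 28 members were called between the lines, as in the fit reported.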
